A study of Caenorhabditis elegans with 7 samples.

Results

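The genes described are 4 cuticle collagens, *col-105*, *col-45*, *col-154* and *dpy-14*, and 2 hedgehog-related genes, *grd-3* and *grl-9*, in first-stage (L1) larvae of Caenorhabditis elegans. They are 6 of 959 different gene symbols that the annotation supplied with the authors' deposited value table gives. Each symbol has 1 row of that table, and each row was matched by its values to 1 spot of the array files. The genes were picked for their differences between strains in these same arrays, so those differences are given as a description, and nothing is read from the counts of a fit over all spots that stand beside them.

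RNA of whole larvae was compared between 4 samples of a strain with a nonfunctional ahr gene (ahr-mutant) and 3 samples of the wild type. The ahr gene (ahr-1 in worm nomenclature) encodes a transcription factor related to the aryl hydrocarbon receptor of vertebrates. Per the labels, eggs were hatched on plates with E. coli and liquid and grown to L1, and the cDNA of each sample, labelled with Cy3, was read on 1 array. The allele of the mutant, the age of the larvae in hours and whether the samples came from separate cultures are not given in the labels, although the mutant titles call theirs biological samples. The precision is limited by the number of arrays. In whole larvae, fewer cells of a type and less RNA per cell cannot be told apart.

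The worm's cuticle is a collagen matrix that the hypodermis, the outer epithelium, secretes anew before each moult. Its collagens form a large gene family, and loss of single members can change body shape. The hedgehog-related genes encode secreted proteins of families named warthog, groundhog, ground-like, quahog and hog, many of which are made in the hypodermis and other cuticle-bearing epithelia, and several act in moulting. Many genes of both families are transcribed in pulses within each moulting cycle.

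Signals are log2 intensities after quantile normalization, where a step of 1 is a 2-fold change. The arrays held between 21942 and 22593 spots with a positive signal. Differences are ahr-mutant minus wild type. ahr-mutant replicate 1 was deposited with its rows in another order. For *grd-3* and *col-105* its signal was placed by alignment, and for *col-45* and *col-154* it was known from an exact value in the table. For *grl-9* and *dpy-14* it lay in a stretch whose order was uncertain and was left missing.

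Of the 6 genes, 4 had lower and 2 had higher signals in the mutants. For every gene all measured mutant arrays lay on one side of all wild-type arrays, with 3 mutant arrays measured for *grl-9* and *dpy-14*. Such a separation occurred in 10.3% of the 22503 spots tested, 4.68% with lower and 5.57% with higher mutants, and in 79.1% of the 1066 spots of the deposited table, from which the genes come (44.9% lower and 34.1% higher). No gene passed a limma adjusted p threshold of 0.05 (0 of 6), which 0.00889% of the spots passed. At an unadjusted p under 0.05 there were 5 of the 6 genes and 7.55% of the spots. As the genes were chosen from this contrast, nothing is read from these counts.

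The largest of the 6 differences was that of *grd-3*, which encodes a secreted protein of the groundhog family. Its log2 signal was 20.48, 20.32 and 20.47 in wild-type replicates 1 to 3 and 19.02, 18.25, 16.86 and 18.93 in ahr-mutant replicates 1 to 4. The wild-type arrays lay close together, the mutant arrays were spread over 2.16, and the strains were 1.30 apart at their nearest. The means were 18.27 ± 1.00 (SD, n = 4) in the mutants and 20.42 ± 0.09 (SD, n = 3) in the wild type, a log2 difference of -2.16 ± 0.52 (SE), or 4.46-fold lower. On the wild-type arrays the spot was brighter than 98.4% to 98.8% of spots with a signal, and on the mutant arrays brighter than 66.8% to 92.3%.

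The ground-like gene *grl-9* had the smallest difference of the 6. The log2 signal of *grl-9* was 16.61, 17.10 and 16.42 in wild-type replicates 1 to 3 and 16.29, 15.99 and 15.66 in ahr-mutant replicates 2 to 4. The strains were 0.14 apart at their nearest, less than the range of 0.63 within the mutants or 0.68 within the wild type. The log2 difference was -0.73 ± 0.37 (SE), or 1.66-fold lower in the mutants.

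*dpy-14* is a cuticle collagen gene named for the short, stout (Dumpy) worms that alleles of it give. On the log2 scale it read 16.72, 16.38 and 17.18 in the wild type and 15.05, 15.09 and 15.25 in ahr-mutant replicates 2 to 4. The mutants lay within 0.20 of each other and 1.13 below the lowest wild-type array. The means were 15.13 ± 0.11 (SD, n = 3) and 16.76 ± 0.40 (SD, n = 3), a log2 difference of -1.63 ± 0.36 (SE), or 3.10-fold lower. In the mutants the spot was dim, brighter than 15.7% to 22.1% of spots with a signal, against 56.8% to 72.1% in the wild type. With a normexp background correction the log2 difference was -2.26.

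*col-105*, another cuticle collagen, also had lower signals in the mutants. Its log2 signal was 17.19, 18.20 and 18.74 in wild-type replicates 1 to 3 and 16.81, 16.07, 16.70 and 15.55 in ahr-mutant replicates 1 to 4. Both strains were widely spread, by 1.55 in the wild type and 1.25 in the mutants, and were 0.38 apart at their nearest. The means were 16.28 ± 0.58 (SD, n = 4) and 18.04 ± 0.79 (SD, n = 3), and the log2 difference was -1.76 ± 0.47 (SE), or 3.39-fold lower.

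The cuticle collagen *col-45* had higher signals in the mutants. Its log2 signal was 19.21, 19.25, 19.47 and 19.03 in ahr-mutant replicates 1 to 4 and 17.75, 16.84 and 18.35 in wild-type replicates 1 to 3. Here the mutant arrays were close together, within 0.44, and the wild-type arrays were spread over 1.51, the reverse of the order for *grd-3*. The means were 19.24 ± 0.18 (SD, n = 4) and 17.65 ± 0.76 (SD, n = 3), a log2 difference of 1.59 ± 0.40 (SE), or 3.01-fold higher.

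*col-154*, the other cuticle collagen with higher signals, had a smaller difference. It had log2 signals of 17.22, 17.70, 18.20 and 17.72 in ahr-mutant replicates 1 to 4 and 16.40, 16.73 and 17.03 in wild-type replicates 1 to 3. The strains were 0.19 apart at their nearest, less than the range of 0.99 within the mutants. The log2 difference was 0.99 ± 0.35 (SE), or 1.99-fold higher.

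**Figure D1:**
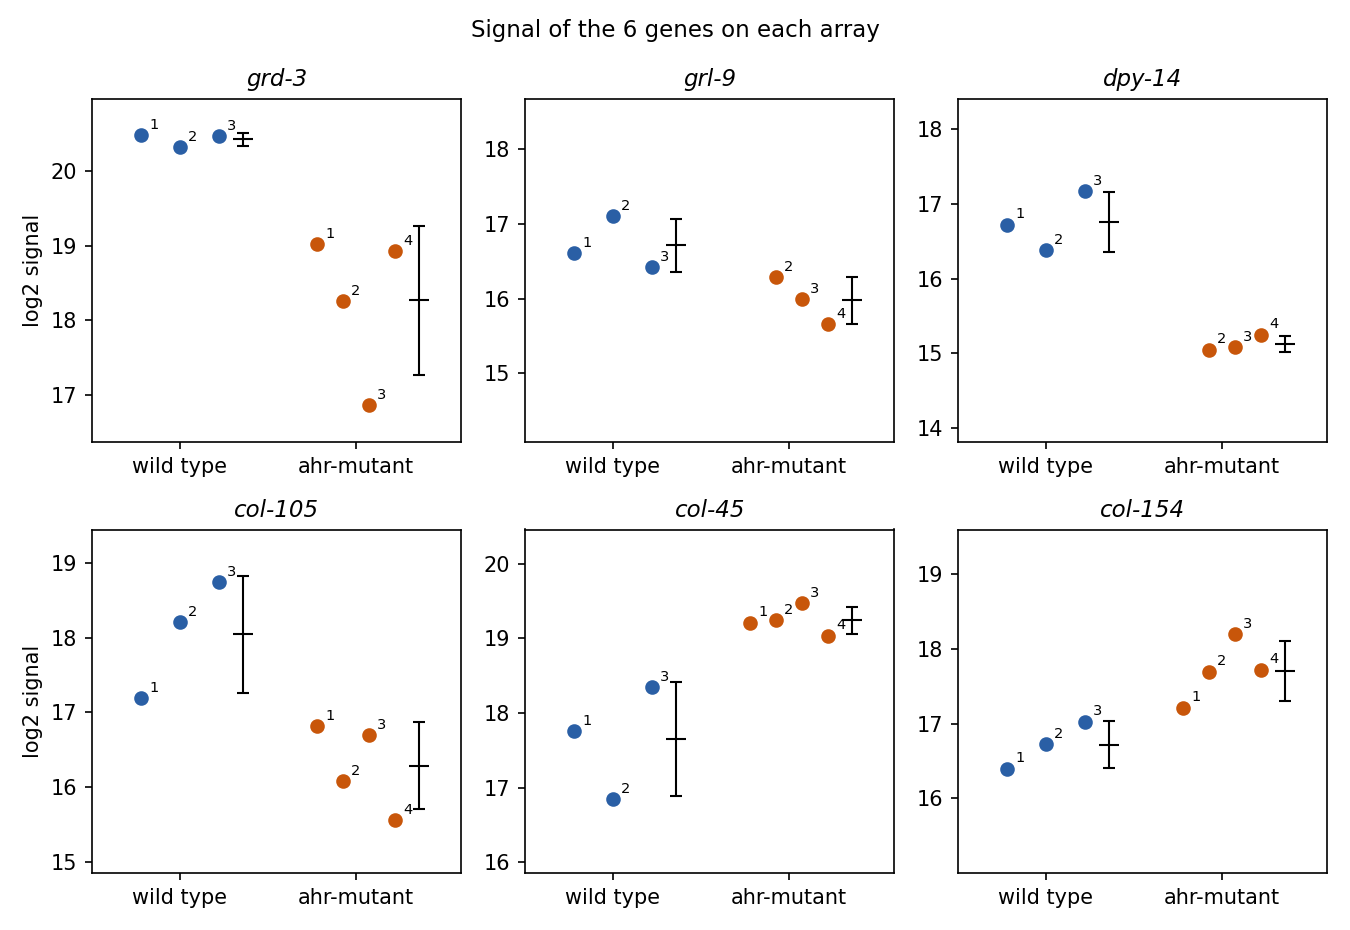
Log2 signal of each gene (vertical axis, the same span in every panel) on the wild-type and ahr-mutant arrays; points are arrays with their replicate number, and bars are the mean ± SD of each strain. The strains are separated for all 6 genes, by 1.30 for *grd-3* and by 0.14 for *grl-9*, and ahr-mutant replicate 1 is missing for *grl-9* and *dpy-14*.

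The strain difference also varied with position on the slide, taken here as 12 rows of 4 blocks. This layout was inferred from the number of spots and from the row order of ahr-mutant replicate 1 and is not stated in the labels, and every slide row, block and locally adjusted value rests on it. Among spots that the deposited table does not use, the median difference went from -0.46 in slide row 1 to 0.50 in slide row 12. The 4 genes with lower signals lie in slide rows 1 (*grd-3*), 2 (*grl-9* and *dpy-14*) and 4 (*col-105*), and the 2 with higher signals in slide rows 7 (*col-45*) and 10 (*col-154*). Each of the 6 differences thus had the sign of the median of its own block. Of the deposited table's spots, 84 were lower and 1 higher in slide row 1, and 123 and 4 in slide row 2. The counts were 98 and 3 in slide row 4, 29 and 23 in slide row 7, and 3 and 100 in slide row 10. Outside slide row 7, the genes thus had the direction of nearly all table spots in their slide rows. The spots of *grl-9* and *dpy-14* are 3 places apart in 1 block, so these genes share their surroundings on the slide.

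Within their blocks the genes stood at different depths. In the block of *grd-3* the median difference of 402 spots outside the table was -0.62, and 2 of these spots had a lower value than *grd-3*. For *col-105* the block median was -0.41 and 6 of 427 spots were lower, and for *col-45* it was 0.24 and 6 of 451 spots were higher. In the block that *dpy-14* and *grl-9* share, with a median of -0.42, 11 of 374 spots were lower than *dpy-14* and 87 were lower than *grl-9*. For *col-154* the block median was 0.32 and 31 of 419 spots were higher. These ranks are a description only, because the genes were chosen for their difference and the spots they are ranked among hold none of the deposited table.

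**Figure D2:**
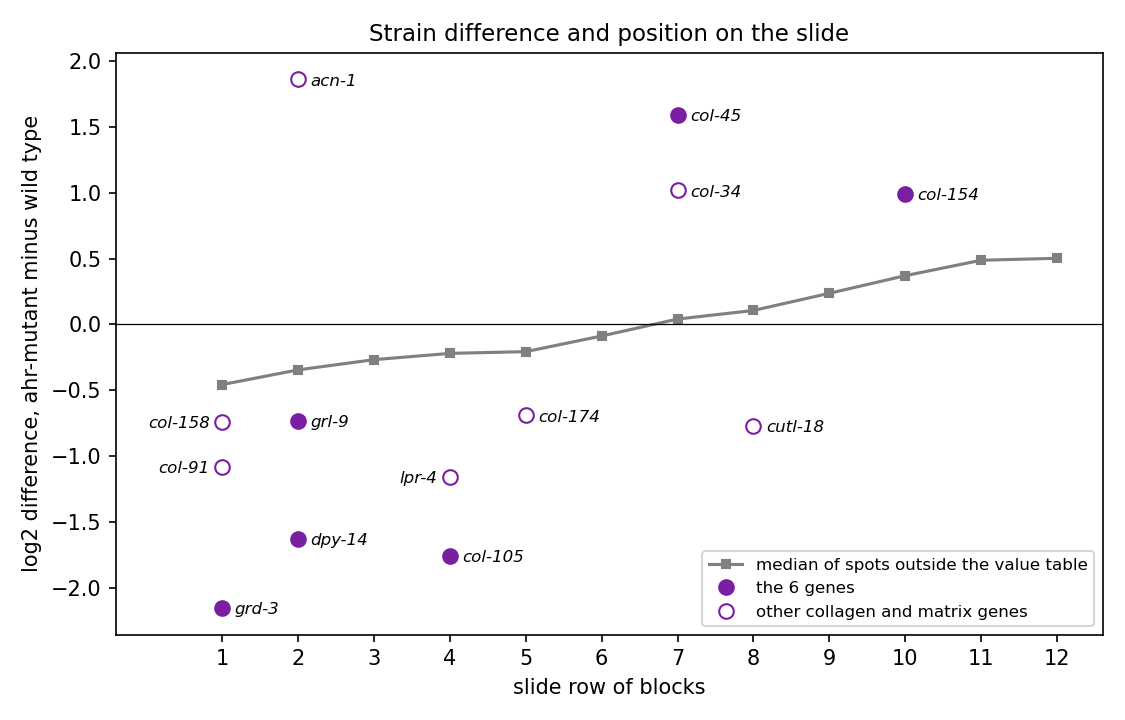
Log2 difference between the strains (vertical axis) against slide row (horizontal axis, 1 to 12); the grey line is the median of spots outside the deposited table, filled points are the 6 genes and open points are the other cuticle collagen, moulting and matrix genes with a named spot. The line climbs from -0.46 to 0.50, the genes below 0 lie in slide rows 1 to 8, and *acn-1* in slide row 2 lies at 1.86, opposite to the line.

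A local position adjustment, which subtracts from each array the median deviation of the spots in a window of 21 by 21 around each spot, made all 6 differences smaller. *col-45* kept 89.7% of its log2 difference, at 1.43 ± 0.40 (SE) or 2.69-fold higher, and *col-105* kept 74.2%, at -1.31 ± 0.33 (SE) or 2.47-fold lower. *grd-3* kept 67.9% and was 2.76-fold lower (-1.46 ± 0.36, SE), and *dpy-14* kept 57.0% and was 1.90-fold lower (-0.93 ± 0.31, SE). These are the 4 genes whose strains remained separated, 3 lower and 1 higher. After the adjustment this held for 9.25% of all spots (4.44% lower, 4.81% higher) and 48.5% of table spots (28% lower, 20.5% higher).

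*col-154* and *grl-9* no longer had separated strains. *col-154* was 1.46-fold higher in the mutants (0.54 ± 0.30, SE), with ahr-mutant replicate 1 at 17.01 inside the wild-type range of 16.76 to 17.31. *grl-9* kept 13.3% of its difference (-0.10 ± 0.36, SE), with mutants from 15.84 to 16.65 and wild type from 16.13 to 16.90. No gene of the 6 passed limma's adjusted p threshold after the adjustment either, and 4 of 6 had an unadjusted p under 0.05, against 6.65% of all spots. Nothing is read from these counts either.

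The adjustment also changed the spread within strains. For *col-105* the SD went from 0.79 to 0.37 in the wild type and from 0.58 to 0.42 in the mutants, and the gap between strains grew from 0.38 to 0.59. For *grd-3* the mutant SD went from 1.00 to 0.55, with replicate 3 moving from 16.86 to 17.85, while the wild-type SD went from 0.09 to 0.32 and the gap went from 1.30 to 0.68. For *col-45* the mutant SD went from 0.18 to 0.36 and the wild-type SD from 0.76 to 0.79. The gap of *col-45* narrowed from 0.68 to 0.13, and wild-type replicate 3, at 18.67, came near the lowest mutant, at 18.79. With the adjustment, *dpy-14* was at 15.46, 15.65 and 15.48 in ahr-mutant replicates 2 to 4 and at 16.36, 16.22 and 16.80 in the wild type, a gap of 0.57.

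**Figure D3:**
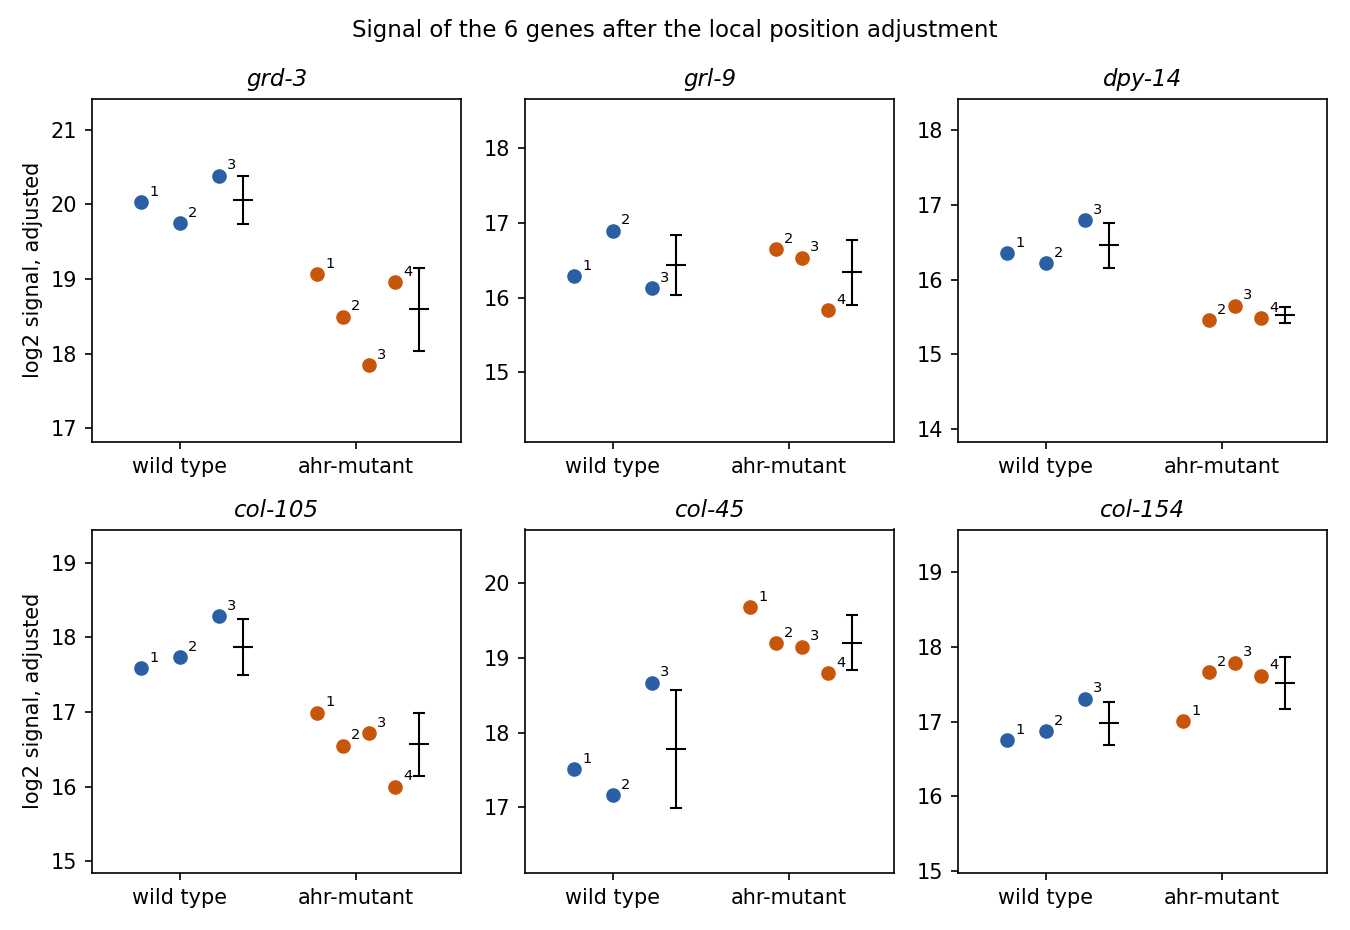
Log2 signal of each gene after the local position adjustment (vertical axis, the same span in every panel), with arrays as points numbered by replicate and mean ± SD as bars. The strains of *grd-3*, *dpy-14*, *col-105* and *col-45* stay apart, by 0.13 for *col-45* and 0.68 for *grd-3*, and those of *grl-9* and *col-154* overlap.

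The other cuticle collagens with a named spot did not share 1 direction. Of 8 such collagens, the 4 above included, 5 had lower and 3 higher means in the mutants, and the strains were separated for 4 lower and 2 higher ones, against 79.1% of table spots and 10.3% of all spots. The median of the 8 was -0.72, beside -0.51 over the table spots and 0.02 over all spots tested. The locally adjusted median was -0.17, beside -0.24 over the table spots, and 2 lower and 2 higher collagens had separated strains, against 48.5% of table spots and 9.25% of all spots. With the dimmest 25% of spots left out, some collagens among them, the median was 0.15. None of the 8 passed limma's adjusted p threshold (0 of 8), with or without the adjustment. These counts and medians leave out the collagens of the deposited table that matched no spot. Those collagens, described below, all had higher means in the mutants.

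Among the 4 further collagens, *col-91* was 2.11-fold, *col-158* 1.67-fold and *col-174* 1.62-fold lower in the mutants. These lie in slide rows 1, 1 and 5, and with the adjustment they were 1.43-fold, 1.04-fold and 1.22-fold lower with overlapping strains. Without the adjustment, *col-91* was at 16.52 in wild-type replicate 2 but at 14.91 and 14.92 in wild-type replicates 1 and 3. On all arrays but wild-type replicate 2 its spot was dim, brighter than 0.752% to 12.1% of spots with a signal. *col-34* was 2.02-fold higher (1.02 ± 0.39, SE), with ahr-mutant replicate 1 at 15.57 below wild-type replicate 1 at 15.73. It lies in the same block as *col-45*, and with the adjustment it was 1.72-fold higher (0.79 ± 0.27, SE) with separated strains. The pair of collagens in that block therefore both had higher adjusted means in the mutants.

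A further 3 cuticle collagens of the deposited table matched no spot, so their position on the slide is unknown here. In the authors' deposited table, whose values are ratios scaled by a constant for each row, *col-130* had values of 1 to 2.49 in the mutants and 0.609 to 0.784 in the wild type. *col-76* had 1 to 1.54 in the mutants and 0.781 to 0.874 in the wild type in the authors' deposited table. *col-36* ran from 0.983 to 2.67 and from 0.611 to 1 there, so its strains overlapped. The means of all 3 were higher in the mutants, with log2 differences of 0.57 (*col-76*), 1.08 (*col-130*) and 1.16 (*col-36*). In the same deposited table *grd-3* had 0.210 to 0.663 in 3 mutants against 2.35 to 3.32 in the wild type, a difference of 6.48-fold without ahr-mutant replicate 1. That array has no value there in 752 of the 1290 rows. These include the rows of *grd-3*, *grl-9*, *dpy-14* and *col-105*, the genes with lower signals, but not those of *col-45* and *col-154*.

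Genes that modify collagens or act in moulting were sparse. *dpy-18*, the catalytic subunit of the prolyl 4-hydroxylase that modifies collagen chains, matched no spot. Its values in the authors' deposited table were 3.27, 1.37, 1.65 and 1 in ahr-mutant replicates 1 to 4 and 0.234, 0.371 and 0.165 in wild-type replicates 1 to 3, or 6.78-fold higher in the mutants. *lrp-1*, a megalin-like receptor of the hypodermis needed for moulting, had 1 to 1.74 in the mutants and 0.709 to 0.998 in the wild type in the authors' deposited table, and matched no spot either.

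*acn-1*, which encodes a relative of angiotensin-converting enzyme without its catalytic residues and is needed for moulting, lies in the same block as *dpy-14* and *grl-9* and went the other way. Its log2 signal was 19.37, 19.80, 17.85 and 19.54 in ahr-mutant replicates 1 to 4 and 17.70, 16.72 and 17.42 in wild-type replicates 1 to 3. ahr-mutant replicate 3 was far below the other mutants and 0.16 above the highest wild-type array. The log2 difference was 1.86 ± 0.50 (SE), or 3.63-fold higher, where the block median was -0.42 and 1 of 374 spots outside the table was higher. With the local position adjustment *acn-1* was 4.84-fold higher (2.27 ± 0.37, SE), the strains were 1.25 apart, and it did not pass (limma adjusted p = 0.105, and 0.453 without the adjustment). *acn-1* is a gene of the deposited table too, so its difference is no independent evidence. In the authors' deposited table its strains overlapped, with ahr-mutant replicate 3 at 0.972 and wild-type replicate 1 at 1.

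The remaining matrix genes had lower means in the mutants. *lpr-4*, a lipocalin-related gene, was 2.23-fold lower in slide row 4 and 1.63-fold lower with the adjustment, with separated strains in both. *cutl-18*, a cuticlin-like gene, was 1.71-fold lower in slide row 8. The median of spots outside the table was 0.11 in that slide row and -0.06 in the block of *cutl-18*. Its spot was dim, brighter than 1.53% to 28.1% of spots with a signal. *cutl-18* was 1.65-fold lower with the adjustment, and the strains overlapped in both. Neither passed limma's adjusted p threshold.

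**Figure D4:**
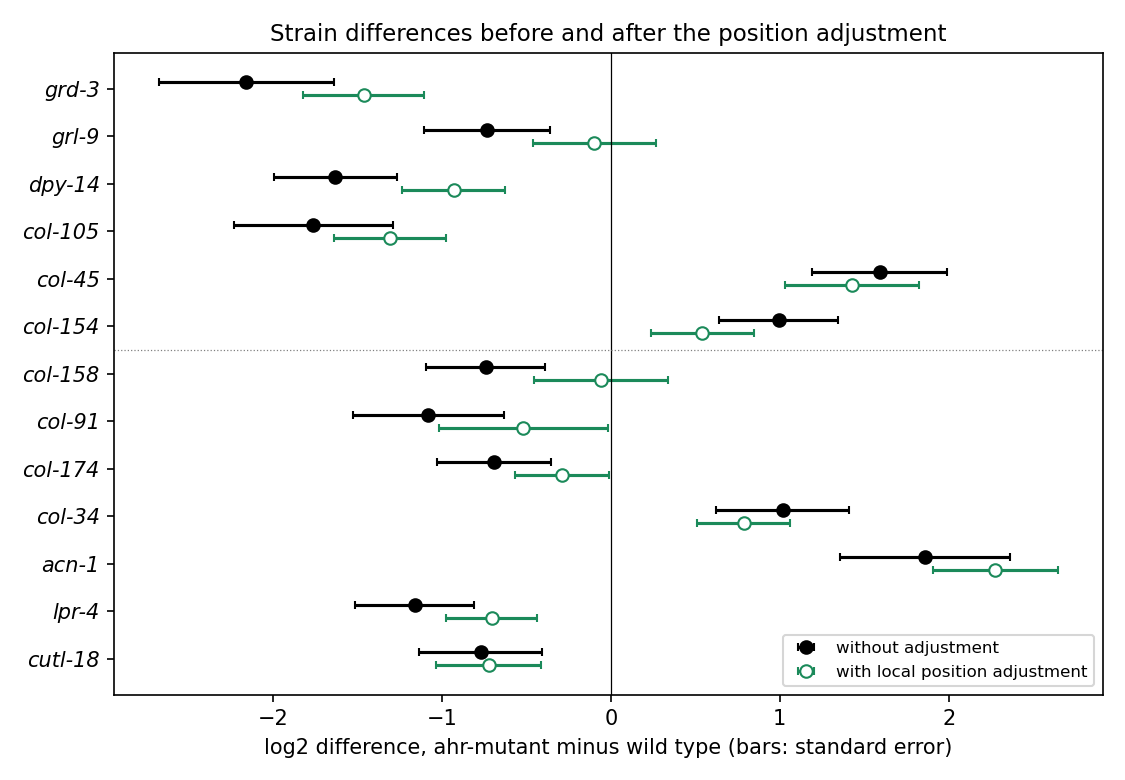
Log2 difference between the strains (horizontal axis, bars are standard errors) without adjustment (filled) and with the local position adjustment (open) for the 6 genes, above the dotted line, and 7 further collagen, moulting and matrix genes. *grl-9* and *col-158* move to -0.10 and -0.06, *col-45* moves from 1.59 to 1.43, and *acn-1* moves from 1.86 to 2.27.

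No other hedgehog-related gene, no Patched-related gene and no hypodermal transcription factor of the lists used has a row with its symbol in the deposited table, and 0 of 8 defining hypodermal markers (*dpy-7*, *col-19*, *rol-6*, *elt-3*, *lin-26*, *wrt-2*, *grd-10* and *grl-4*) has one. The hypodermal share of the RNA could therefore not be followed with these markers. Of the other tissues' lists, body wall muscle and intestine had no named gene. Germline and sperm genes had 10 named spots, 7 with higher and 3 with lower means in the mutants. Their median difference was 0.90, and 0.38 with the adjustment. The strains were separated for 4 higher and 1 lower of them, against 79.1% of table spots and 10.3% of all spots. With the adjustment this held for 3 higher and 1 lower, against 48.5% of table spots and 9.25% of all spots. In a sum of signals the brightest genes weigh most. The log2 of the summed signal of the 10 was 20.81 to 22.07 in the mutants and 19.83 to 20.34 in the wild type. With the adjustment it was 20.80 to 21.73 against 19.96 to 20.53. Neuron genes had 3 named spots, 2 higher and 1 lower, whose summed signal was 18.05 to 18.86 (log2) in the mutants and 17.23 to 17.33 in the wild type, and 17.97 to 18.46 against 17.41 to 17.50 with the adjustment. Of 24 defining markers looked for, the hypodermal ones included, 1 is in the table, the sperm gene *msp-78*. Of the neuron genes, *mec-7* and *mec-4*, known from touch receptor neurons, were 3.28-fold and 2.30-fold higher. They lie in slide rows 11 and 12, where the median difference of spots outside the table was 0.49 and 0.50, and with the adjustment they were 2.29-fold and 1.63-fold higher. Both had separated strains with and without the adjustment, against the same shares of spots as for the germline and sperm genes. The other neuron gene, *ida-1*, was 1.31-fold lower, and 1.14-fold lower with the adjustment, and its strains overlapped in both. The part of these other tissues in the collagen and hedgehog-related differences was not tested.

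Among 780 other named spots, the genes whose log2 signals followed each gene most closely over the arrays were found by Pearson's r, given here as a measure of likeness only, since the arrays fall into 2 strains and all named spots come from the table. For *grd-3* these were *glb-32* (r = 0.989) and *F52E4.5* (r = 0.986, 7 arrays each), both in slide row 2, and for *col-105* *rund-1* (r = 0.978) and *F36G3.2* (r = 0.976), both in slide row 5. For *col-45* they were *F01F1.2* (r = 0.979) and *ZK402.1* (r = 0.977), and for *col-154* *ifg-1* (r = 0.975) and *fbxa-80* (r = 0.967). Over the 6 arrays measured for *dpy-14* and *grl-9*, they were *C30G4.4* (r = 0.996) and *gst-12* (r = 0.993), and *rom-2* (r = 0.992) and *ddr-1* (r = 0.987). With the local position adjustment these 12 coefficients lay between 0.503 (*ddr-1* with *grl-9*) and 0.984 (*C30G4.4* with *dpy-14*). None of the 12 is a collagen or hedgehog-related gene by its symbol. Only 8 cuticle collagens and 2 hedgehog-related genes had a named spot, the 6 described included, so nothing is read from this.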

How the data were processed

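Per the labels' protocols, total RNA was reverse transcribed with Cy3-dUTP and hybridized to 1-colour arrays. The deposited array files hold 1 linear intensity for each of 23232 spots. For scanning, quantification and background correction, no method is given in the sources used here. Blank, 0 and negative values were treated as missing. The authors' deposited value table holds a ratio per array and row for 1290 rows. Set against the array files, each ratio is the signal multiplied by an array constant and divided by a row constant. Of these rows, 1080 were matched to a spot within 0.0001 on the log2 scale (largest distance 4.03e-06, smallest distance to another spot 0.0633). Without 27 rows that matched the spot of another row, 781 spots had 1 symbol.

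The rows of ahr-mutant replicate 1 were put in order by signal along source plates of 384 wells. A segment was kept when it spanned 100 spots or more and correlated at 0.7 or above with the other arrays, and 10 spots were trimmed from both of its ends. A segment of 765 spots was set aside because 5 of 16 known positions in it were contradicted by exact values of the table. In total 19928 spots were placed (85.8%), and the 317 known positions among them were right, counted after that segment had been set aside for its disagreement, so this is no estimate of the error of placing. Exact table values filled others, which left 3263 spots missing.

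Log2 intensities were quantile normalized before re-placing. Differences and standard errors came from lmFit and eBayes of limma 3.58.1 (R 4.3.3), with two-sided p-values adjusted by Benjamini-Hochberg over the 22503 spots that had 2 or more values in both strains. Matching and plots used Python 3.11.15. The placing and the fit were tested on simulated data. Alternatives were median scaling, quantile normalization after re-placing, normexp (offset 50), the local position adjustment, block medians, a filter on dim spots, other placings of replicate 1, the deposited table and leaving out each array.

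The genes and lists were chosen with earlier results of these data known. Genes named are the 6 described, every gene of the lists on collagens, hedgehog-related and Patched-related proteins, collagen processing, moulting and hypodermal regulators found in the table, any marker gene of the other lists so found that the text needs, and for each of the 6 the 2 genes most alike by Pearson's r. Replicates are numbered by accession order, which pairs nothing. In the labels, replicates 1 to 4 of the mutant are samples 56, 60, 62 and 54, and replicates 1 to 3 of the wild type are 59, 61 and 63. The p-values reflect the spread among these arrays alone, which may be technical. Genome positions are left out, as the labels name no build.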

Additional observations from a re-analysis of the deposited data

Results flagged for a closer look

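The mutant values were examined for the 26 genes of the lists, markers included, that have a named spot, less *dpy-14* and *grl-9*. In these 24 sets of 4 mutant values, 3 sets had 1 sample far from the others by Dixon's test, where chance gives about 1 in 20. None was among the 6 genes. *cutl-18* had ahr-mutant replicate 3 at 15.19 on the log2 scale, above 14.17 to 14.33 in the others. The neuroendocrine gene *ida-1* had ahr-mutant replicate 2 at 15.59, above 15.16 to 15.18. The sperm gene *spe-36* had ahr-mutant replicate 2 at 17.21, above 16.58 to 16.62. These flags come from signals without the local position adjustment, and Dixon's test was not run on adjusted signals. With the adjustment, replicate 2 of *ida-1* was at 15.65, inside the 14.97 to 15.71 of the other mutants. Replicate 3 of *cutl-18* was at 15.14 against 14.20 to 14.39, and replicate 2 of *spe-36* at 17.19 against 16.77 to 16.84.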

How the results depend on the processing

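Over 23 alternatives each, 5 of the 6 genes kept the sign of their difference, and *grl-9* changed it in 2. Where the strains are separated, leaving out 1 array cannot change the sign. Some alternatives also left a gene's values as they were, and the genes come from the deposited table, which is 1 of the alternatives. The number of alternatives therefore does not measure how firm a sign is. With the local position adjustment and with block medians subtracted, the differences were 0.54 and 0.61 for *col-154*, -0.93 and -1.05 for *dpy-14* and -0.10 and -0.15 for *grl-9*, 1 gene in place of 2 was higher with separated strains, and the median of 8 cuticle collagens was -0.17 and -0.19. Normexp gave -2.26 for *dpy-14*. Without the dimmest 25% of spots, which leaves fewer list genes, the medians were 0.15 for collagens and 0.35 for moulting and matrix genes. The 2 spots past the limma threshold, neither of them in the gene lists, became 0 with median scaling, with normexp, without dim spots, with all segments of replicate 1 placed, with only its exact positions, and without any 1 array; the cause was not tested.

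Leaving out each array in turn gave -2.19 to -1.41 for *col-105*, 1.19 to 1.94 for *col-45*, 0.83 to 1.16 for *col-154*, -1.82 to -1.42 for *dpy-14*, -2.41 to -1.69 for *grd-3*, -0.89 to -0.54 for *grl-9* and -0.86 to -0.53 for the collagen median. Leaving out each array with the local adjustment was added after seeing the data. It gave 0.43 to 0.71 for *col-154*, -1.05 to -0.76 for *dpy-14*, -1.62 to -1.22 for *grd-3* and -0.25 to 0.15 for *grl-9*, which was 0.15 without ahr-mutant replicate 4 and 0.13 without wild type replicate 2. Under it 1 to 2 genes were higher with separated strains, the collagen median was -0.37 to 0.0012 (0.0012 without wild type replicate 2), and 0 to 4 spots passed, with 4 without ahr-mutant replicate 1. No paired analysis was possible because the labels' sample numbers are not shared between strains. The blank, 0 and negative spots limit what could be measured, and no background signal is given to set dim spots such as *dpy-14* against.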
